A study of Mus musculus with 6 samples.

Results

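The insulin-like growth factor (IGF) genes described here are 9 of the 55487 genes counted in mouse cerebellum: the ligands Igf1 and Igf2, the receptors Igf1r and Igf2r, and the binding proteins Igfbp2, Igfbp3, Igfbp4, Igfbp5 and Igfbp6. They are a named gene family, chosen by its role but picked on earlier results from the knockout against wild-type contrast in these same libraries. The members' values below are therefore a description, and their p values are the output of the fit over all genes and not evidence of their own. All 9 passed the filter on low counts.

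IGF1 and IGF2 are small secreted hormones related to insulin. Both act through IGF1R, a receptor tyrosine kinase that drives growth and survival through the PI3K-AKT-mTOR and MAP kinase pathways, while IGF2R binds IGF2 without such a kinase and carries it to lysosomes. The binding proteins hold the ligands in tissue fluid, where they can block or prolong their action. In the brain Igf2 is known from the choroid plexus and the meninges, Igfbp2 from choroid plexus, meninges and astrocytes, and Igf1 from Purkinje cells and other projection neurons as well as microglia.

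RNA came from cerebellar tissue of single male mice at postnatal day 14, with 3 mice homozygous for the Galnt17 knockout allele Galnt17tm1.1(KOMP)Vlcg (KO, labelled Wbscr17KOKO) and 3 wild types of the B6C3 stock (WT). Galnt17, formerly Wbscr17, encodes a polypeptide N-acetylgalactosaminyltransferase. The allele came as sperm from the KOMP repository and was first carried on C57BL/6J, where no live homozygotes were born. Crossing to B6C3, the F1 hybrid of C57BL/6J and C3H/He, gave viable KO animals. The labels do not say that the 2 groups were littermates, so genotype and breeding history cannot be told apart. The counts of Galnt17 were 72, 80 and 63 with the KO label against 1119, 729 and 963 with the WT label (15.3-fold lower in KO, edgeR adjusted p = 6.18e-08). Levels are given as CPM, the counts of a gene per 1000000 counts of its library after scaling between libraries. Fold changes are KO against WT on the log2 scale with their standard error (SE). Adjusted p values are those of edgeR's quasi-likelihood F test, adjusted by Benjamini and Hochberg's method over 18237 genes, and a gene with a value below 0.05 was called. They set the difference between the groups against the spread between single animals, 3 in each group.

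Libraries held 17111611 to 29840046 counts in genes. The share of unmapped reads was 13.8% to 17.2% in KO and 6.52% to 10.03% in WT, and the shares of multimapping and ambiguous reads were lower in each KO library than in any WT library. The part of these differences in the results was not tested. Markers of cerebellar granule and Purkinje cells, such as Gabra6, Neurod1, Pcp2 and Calb1, were present in every library. Of 20 markers of the choroid plexus, the epithelium in the ventricles that makes cerebrospinal fluid, 13 were lower in KO and 0 higher, and their summed level was 259 to 828 CPM in KO and 1682 to 2992 CPM in WT. Ttr, the most abundant of them in WT, encodes the thyroid hormone carrier transthyretin. It had 4.26, 220.1 and 431 CPM across KO replicates 1, 2 and 3, against 1096, 1861 and 1995 CPM across the WT replicates in the same order. It was not among the 13 (log2 fold change -2.92, SE 0.95, edgeR adjusted p = 0.154), and passed without KO replicate 1 (log2 fold change -2.34, edgeR adjusted p = 0.0126). Leaving out 1 library moved the count of called genes over all genes from 143 higher and 159 lower to between 28 and 959 higher and between 53 and 962 lower, with the highest counts without WT replicate 1. In whole tissue, fewer cells of a type and less RNA per cell cannot be told apart.

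Igfbp2 was the member that differed most, and its neighbour on chromosome 1, Igfbp5, did not follow it. Both genes lie on GRCm38 chromosome 1, Igfbp2 (ENSMUSG00000039323) at 72824503 to 72852474 on the plus strand and Igfbp5 (ENSMUSG00000026185) at 72857932 to 72874884 on the minus strand, so their 3′ ends face each other across 5457 bases. The sequences before their starts are shown because this pair stands side by side in the genome with unlike results. Whether these sequences bear on the KO and WT levels was not tested. Each is a stretch of 231 bases from 250 to 20 bases before the RefSeq start (GRCm38.p6, for Igfbp2 the more upstream of 2 starts), 5′ to 3′ on the gene's own strand and free of annotated exons.
Igfbp2, chr1:72824230-72824460 (plus strand): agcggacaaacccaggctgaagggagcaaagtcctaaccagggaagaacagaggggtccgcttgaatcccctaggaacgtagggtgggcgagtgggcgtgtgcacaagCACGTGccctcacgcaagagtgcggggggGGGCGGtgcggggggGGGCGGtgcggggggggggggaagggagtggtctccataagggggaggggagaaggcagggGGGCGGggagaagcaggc
Igfbp5, chr1:72874885-72875115 (minus strand): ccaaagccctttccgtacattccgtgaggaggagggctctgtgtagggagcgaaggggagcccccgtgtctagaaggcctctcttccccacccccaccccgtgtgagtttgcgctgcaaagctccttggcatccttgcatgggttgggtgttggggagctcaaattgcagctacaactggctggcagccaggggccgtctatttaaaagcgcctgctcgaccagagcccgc
Capitals mark matches on either strand to any of 4 motifs: TATAAA, the TATA box, then GGGCGG, the GC box, then CCAAT, the CCAAT box, and the E-box CACGTG. No match overlapped another here. The Igfbp2 stretch, 68.4% G and C, held GGGCGG 3 times and the palindrome CACGTG once. The stretch before the other Igfbp2 start, 56.3% G and C and in part exonic, held none of the 4. Over 32841 stretches of the same length before RefSeq starts, 30% held GGGCGG and 5.37% held CACGTG, and the median G and C content was 51.9%. The Igfbp5 stretch, 60.6% G and C, held none of the 4 motifs, which says only that these letters are not in this stretch. TATAAA was in 11.8% and CCAAT in 32.3% of all stretches.

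Among the 9 members, 1 fell in KO, 0 rose and 8 did not pass, against 1.66% of all genes called in either direction, 0.784% called higher and 0.872% called lower. The groups did not overlap for 3 of the 9, Igf1, Igfbp2 and Igfbp6, against 23.7% of all genes. The median log2 fold change of the members was 0.11, beside -0.01 over all genes tested. Nothing is read from these counts, since the same contrast was known when the members were picked.

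**Figure D1:**
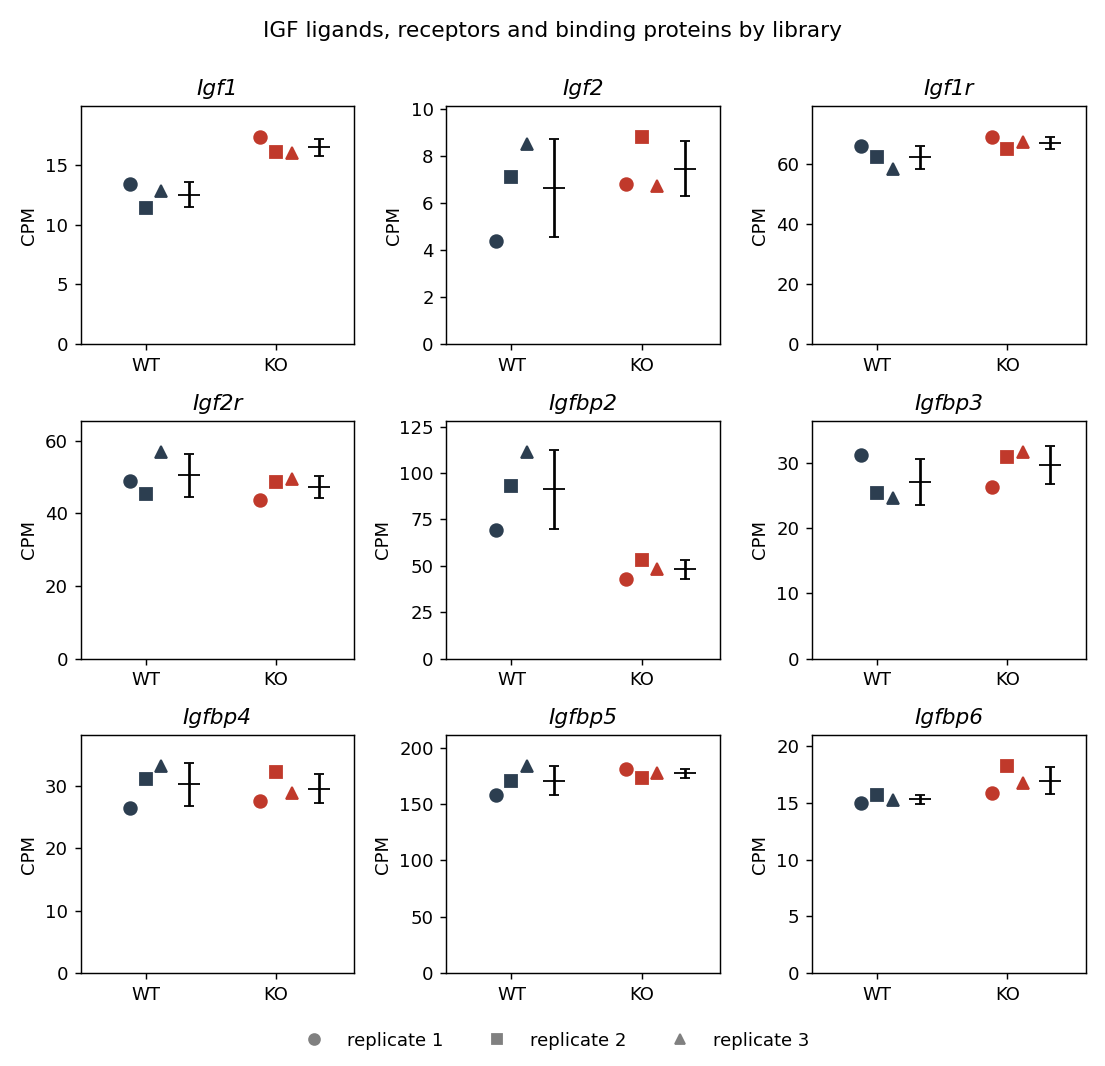
Level of each of the 9 genes (y axis, CPM from 0) in the 3 WT (dark) and 3 KO (red) libraries. Symbols give the replicate, and the bar beside each group is the mean ± SD of n = 3. Igfbp2 lies between 42.6 and 53.1 CPM in KO and between 69.1 and 111 CPM in WT, and Igf1 between 16.0 and 17.3 CPM in KO and between 11.4 and 13.4 CPM in WT.

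The ligands were measured at low levels. Igf1 (ENSMUSG00000020053, chromosome 10, 87858265 to 87937042, plus strand) had 17.3, 16.1 and 16.0 CPM in KO, replicates in order, and 13.4, 11.4 and 12.8 CPM in WT. Every KO library lay above every WT library, with WT replicate 1 nearest to the KO libraries. The log2 fold change was 0.39 (SE 0.10, 16.5 ± 0.721 against 12.5 ± 1.04 CPM, mean ± SD, n = 3 each), 1.31-fold, and it did not pass in edgeR (adjusted p = 0.0768). It passed without WT replicate 1 (log2 fold change 0.45, edgeR adjusted p = 0.0225), and with the mean of the choroid plexus markers as a covariate it was 0.21 (SE 0.21, edgeR adjusted p = 1.0). That covariate was lower in every KO library than in any WT library, so genotype and choroid plexus level cannot be told apart in that fit.

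Summed Purkinje cell markers were also higher in KO in every library (5554 to 5714 CPM against 4545 to 4862 CPM), with 3 of 10 markers called higher, Gng13, Pcp2 and Car8, and 0 lower. Summed oligodendrocyte markers were higher in each KO library as well (14056 to 14734 CPM against 12756 to 12888 CPM), with 2 of 10 called higher, Ermn and Cldn11, and 0 lower. The part of these cell types in the Igf1 difference was not tested. The summed microglia markers overlapped between the groups (144 to 153 CPM in KO and 142 to 163 CPM in WT), with 0 of 12 called in edgeR and 1 lower at an unadjusted p under 0.05.

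Igf2 (ENSMUSG00000048583, chromosome 7, 142650766 to 142666816, minus strand), which is imprinted and known as a growth factor of the fetus, had 204, 205 and 136 counts in KO and 106, 121 and 175 counts in WT, or 6.84, 8.81 and 6.75 CPM against 4.39, 7.10 and 8.51 CPM. The groups overlapped, and WT replicate 1 was the lowest of the 6. The log2 fold change was 0.17 with a 95% interval from -0.32 to 0.66 (edgeR adjusted p = 0.72), and it was -0.070 without WT replicate 1. Of the 5723 exon bases of Igf2, 3596 (62.8%) are shared on the same strand with the overlapping gene model Gm49394, which had 0 counts in all 6 libraries. STAR leaves out reads that fall on more than 1 gene, and with this gene model in the annotation reads on the shared bases would not count towards Igf2. The annotation release used for counting may differ here, so how many reads this removed is not known.

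Of the other genes at the Igf2 locus, those tested did not pass. The imprinted non-coding RNA gene H19 was at 11.8 ± 1.89 CPM in KO and 11.2 ± 0.718 CPM in WT (log2 fold change 0.07, SE 0.13, edgeR adjusted p = 0.812). Ins2, an insulin gene with too few counts to be tested, had 1 to 2 counts in KO and 2 to 5 counts in WT libraries, and Ins1, the other insulin gene, had 0 counts in all 6.

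The receptors differed little. Igf1r (ENSMUSG00000005533, chromosome 7, 67952827 to 68233668, plus strand) had 69.1, 65.2 and 67.4 CPM in KO and 66.3, 62.4 and 58.5 CPM in WT. Those ranges overlapped, and the log2 fold change was 0.11 (95% interval from -0.03 to 0.24, edgeR adjusted p = 0.378). Igf2r (ENSMUSG00000023830, chromosome 17, 12682406 to 12769664, minus strand) had 43.7, 48.5 and 49.3 CPM in KO and 49.0, 45.3 and 56.9 CPM in WT, with WT replicate 3 the highest. Its log2 fold change was -0.10 (95% interval from -0.29 to 0.09, edgeR adjusted p = 0.577). Airn, the imprinted antisense RNA gene that overlaps Igf2r but shares no exon base with it, was at 15.5 ± 1.67 CPM in KO and 13.2 ± 3.19 CPM in WT (log2 fold change 0.22, SE 0.16). The insulin receptor gene Insr was at 73.7 ± 2.04 CPM in KO and 72.7 ± 4.204 CPM in WT (log2 fold change 0.02, SE 0.06).

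Igfbp2, whose protein binds IGF2 with high affinity and can attach to integrins, had 1272, 1235 and 973 counts in KO and 1669, 1587 and 2292 counts in WT. After scaling, that is 42.6, 53.1 and 48.3 CPM in KO against 69.1, 93.1 and 111 CPM in WT. All KO libraries lay below all WT libraries, and the WT libraries were spread more widely than the KO libraries. Igfbp2 fell by 0.93 on the log2 scale (SE 0.15, 95% interval from -1.25 to -0.60, 48.0 ± 5.24 against 91.2 ± 21.2 CPM), 1.90-fold lower in KO (edgeR adjusted p = 0.0133). The call ended when KO replicate 1, WT replicate 2 or KO replicate 3 was left out (edgeR adjusted p = 0.0777, 0.0820 and 0.0658), while the log2 fold change stayed between -1.10 and -0.75 over the 6 fits with 1 library left out.

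**Figure D2:**
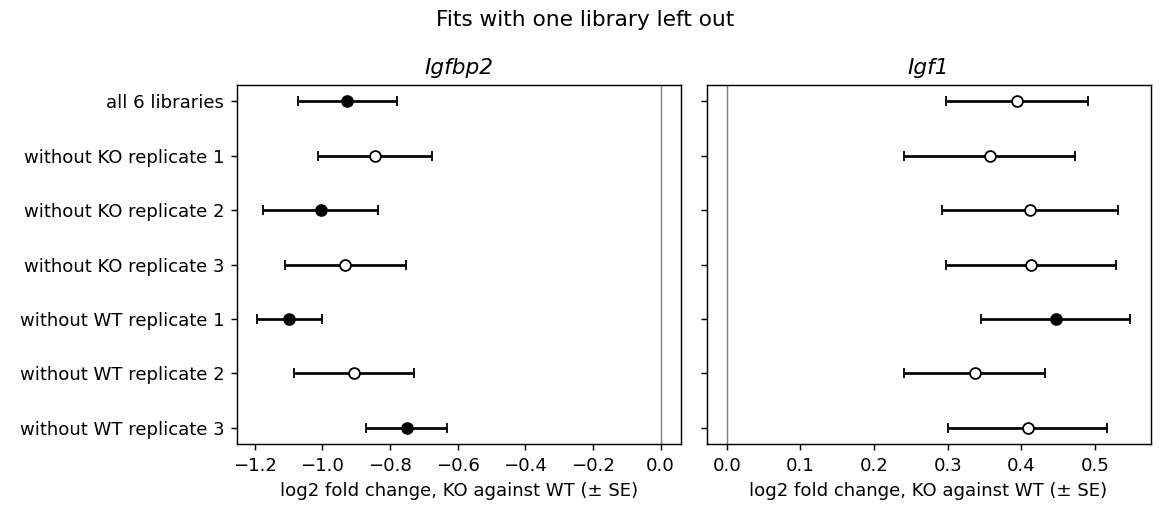
Log2 fold change of Igfbp2 (left) and Igf1 (right), KO against WT, ± SE (x axes) with all 6 libraries and with each library left out in turn (y axis). Filled points had an edgeR adjusted p below 0.05. The Igfbp2 value stays between -1.10 and -0.75 and the Igf1 value between 0.34 and 0.45, and Igf1 is filled only without WT replicate 1.

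Igfbp5, a binding protein of the extracellular matrix, had 182, 173 and 178 CPM in KO and 158, 170.4 and 184 CPM in WT, the highest counts of any member. The ranges overlapped, with WT replicates 1 and 3 at the ends, and the log2 fold change was 0.06 (95% interval from -0.08 to 0.19, edgeR adjusted p = 0.672). Igfbp6 (ENSMUSG00000023046, chromosome 15, 102144362 to 102149511, plus strand), whose protein prefers IGF2 over IGF1, had 15.9, 18.2 and 16.8 CPM in KO and 14.95, 15.7 and 15.3 CPM in WT. Its groups did not overlap, but KO replicate 1 and WT replicate 2 lay next to each other, and the log2 fold change of 0.15 (SE 0.09) did not pass (edgeR adjusted p = 0.416).

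Igfbp3 (ENSMUSG00000020427, chromosome 11, 7206086 to 7213923, minus strand) encodes the main carrier of IGFs in blood. It had 26.4, 30.9 and 31.8 CPM in KO and 31.2, 25.5 and 24.7 CPM in WT, and its groups overlapped (log2 fold change 0.12, SE 0.11, edgeR adjusted p = 0.573). Igfbp4 (ENSMUSG00000017493, chromosome 11, 99041244 to 99054392, plus strand), known as an inhibitor of IGF action, had 27.6, 32.1 and 28.8 CPM in KO and 26.5, 31.1 and 33.1 CPM in WT. Its log2 fold change was -0.03 (SE 0.10, edgeR adjusted p = 0.893), the smallest in size of the 9.

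Levels of different genes were compared per length, as RPKM (CPM per kilobase of merged exons), here as the mean ± SD over all 6 libraries. Igfbp2 came first at 37.7 ± 14.8 RPKM and Igfbp5 second at 29.0 ± 1.55 RPKM, with overlapping ranges over the libraries. Igfbp6 at 14.5 ± 1.08, Igfbp3 at 9.08 ± 1.03 and Igfbp4 at 6.77 ± 0.598 RPKM followed, each apart from the gene above it. Igfbp4 overlapped Igf2r (5.24 ± 0.490 RPKM), while Igf1r at 3.86 ± 0.228 RPKM lay below both. Igf1 at 1.47 ± 0.234 and Igf2 at 1.23 ± 0.276 RPKM were lowest and overlapped each other. Over only the 2127 exon bases that Igf2 does not share with Gm49394, a length chosen after the values were seen, Igf2 was at 3.32 ± 0.741 RPKM, above Igf1.

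Igfbp2 was a smaller part of the binding protein transcripts in each KO library than in any WT library. Of the summed RPKM of the 5 binding proteins it held 40.2%, 46.6% and 50.3% in the WT libraries and 28.0%, 31.5% and 29.9% in the KO libraries. The sum itself was 93.2, 108 and 120.0 RPKM in WT and 82.3, 91.1 and 87.5 RPKM in KO. Without Igfbp2 the sum was 55.7, 57.7 and 59.7 RPKM in WT and 59.2, 62.4 and 61.3 RPKM in KO, ranges that overlap. In the WT libraries Igfbp2 was above Igfbp5 (37.4 to 60.3 against 26.3 to 30.6 RPKM). In the KO libraries their order depended on the length used: over merged exons Igfbp2 was at 23.1 to 28.7 RPKM and Igfbp5 at 28.9 to 30.2 RPKM, and over the longest transcript Igfbp2 was at 32.6 to 40.6 RPKM, above Igfbp5.

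**Figure D3:**
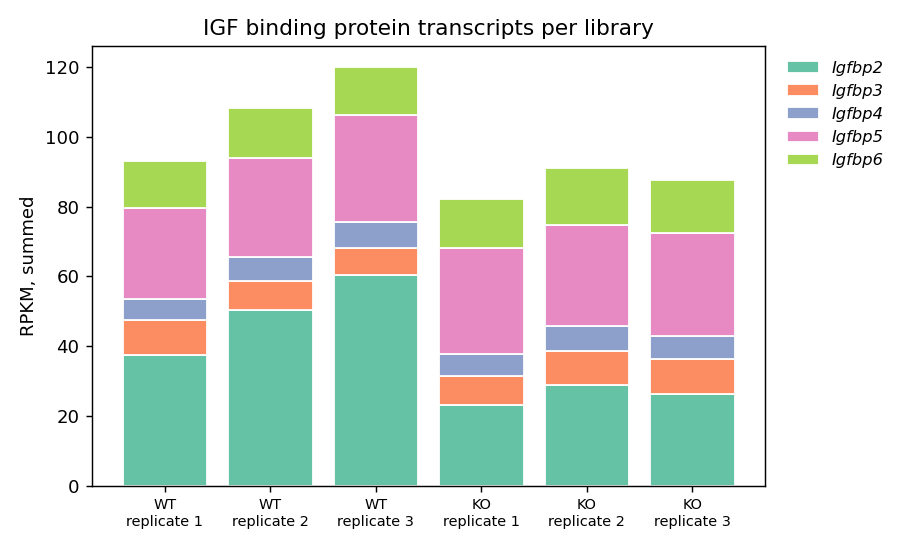
RPKM of the 5 binding protein genes stacked for each library (y axis, from 0). The sum runs from 93.2 to 120.0 RPKM in the 3 WT libraries and from 82.3 to 91.1 RPKM in the 3 KO libraries, and the Igfbp2 layer from 37.4 to 60.3 RPKM in WT and from 23.1 to 28.7 RPKM in KO.

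Ttr was taken as a measure of how much choroid plexus a library holds. Within KO it ran from 4.26 to 431 CPM, while the rest of the choroid plexus list summed to 254 to 397 CPM. Most of that sum was Enpp2, at 194 to 302 CPM in KO. Of the called list genes with the smallest p, Mfrp ran from 0.201 to 1.34 CPM within KO. Aqp1 ran from 0.670 to 2.38 CPM and Calml4 from 0.559 to 1.19 CPM. The fold range within KO thus depended on the gene, and which gene follows choroid plexus content was not tested. The groups did not overlap in Ttr, so no correlation over the 6 libraries is given. Igfbp2 lay in the same order as Ttr in WT (replicate 1, then 2, then 3) but not in KO, where KO replicate 2 was highest for Igfbp2 and KO replicate 3 for Ttr. From the lowest to the highest KO library Ttr differed 101-fold and Igfbp2 1.25-fold. In KO replicate 1, Ttr was at 4.26 CPM and Igfbp2 at 42.6 CPM. Between WT replicate 3 and KO replicate 1, Ttr differed 469-fold and Igfbp2 2.61-fold.

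Other choroid plexus genes were lower in KO as well. Calml4, Aqp1 (a water channel gene) and Mfrp had the smallest p of the list (edgeR adjusted p = 0.00172, 0.00466 and 0.00674). Aqp1 and Mfrp were lowest in KO replicate 1, at 0.670 and 0.201 CPM, where Igfbp2 was lowest as well. Calml4, with 13 to 24 counts in the KO libraries, was lowest in KO replicate 2, at 0.559 CPM. None of the 20 markers was at 0 in any library. Without Ttr the list summed to 254 to 397 CPM in KO and 586 to 998 CPM in WT, 2.36-fold higher in WT by the means. Most of this sum was 1 gene, Enpp2, at 194 to 302 CPM in KO and 444 to 796 CPM in WT. Without Ttr and Enpp2 the sum was 60.1 to 95.5 CPM in KO and 142 to 201 CPM in WT, 2.27-fold higher in WT. The sums weight abundant genes, and the log2 fold changes of the 20 markers ran from -3.11 to -0.06, with a median of -1.94. With the mean log2 level of the choroid plexus list as a covariate, the log2 fold change of Igfbp2 was -0.39 (SE 0.28, edgeR adjusted p = 1.0), in a fit where the covariate separates KO from WT as the genotype does. The part of choroid plexus content in the Igfbp2 difference was not tested beyond these values.

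Markers of the other cells in which Igfbp2 is known overlapped between the groups. Summed meningeal fibroblast markers were at 395 to 426 CPM in KO and 369 to 398 CPM in WT, with 0 of 20 called in edgeR, 2 higher at an unadjusted p under 0.05 and a median log2 fold change of 0.16. With their mean as a covariate the log2 fold change of Igfbp2 was -0.77 (SE 0.16, edgeR adjusted p = 0.0579). Summed astrocyte and Bergmann glia markers were at 3927 to 3965 CPM in KO and 3675 to 4054 CPM in WT, with 0 of 10 called in edgeR and 1 lower at an unadjusted p under 0.05.

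The other members did not follow Ttr in both groups. Igf2, Igfbp4 and Igfbp5 had the Ttr order of libraries in WT but not in KO, Igf2r and Igfbp3 in KO but not in WT, and Igf1, Igf1r and Igfbp6 in neither. With 3 libraries a group such an order is a description only. In KO replicate 1 Igf2 was at 6.84 CPM, within the range of the WT libraries, and Ttr was at 4.26 CPM. The part of choroid plexus content in the Igf2 level was not tested.

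**Figure D4:**
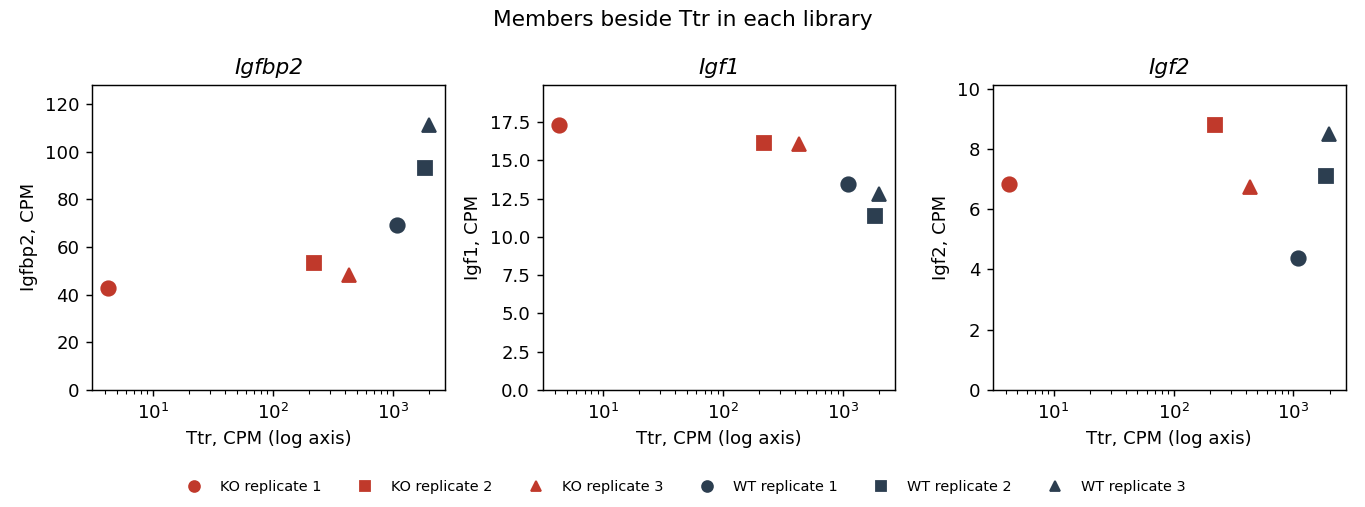
Level of Igfbp2, Igf1 and Igf2 (y axes, CPM from 0) against that of Ttr (x axes, CPM, log scale) in each of the 6 libraries, KO in red and WT in dark, with symbols for the replicate. KO replicate 1, at 4.26 CPM Ttr, has 42.6 CPM Igfbp2, and WT replicate 3, at 1995 CPM Ttr, has 111 CPM Igfbp2.

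The genes whose pattern was most like that of Igfbp2 were found by the root mean square difference of centred log2 CPM over the 6 libraries, among 11708 protein-coding genes with a mean of at least 5 CPM. The nearest were the neurotrophin receptor gene Ngfr (0.147), Lbp, for the lipopolysaccharide binding protein (0.154), Pcp4l1 (0.168), the choroid plexus list gene Clic6 (0.178) and Cd82, for a tetraspanin (0.181). Their levels in KO and WT were 9.07 and 14.8 CPM for Ngfr, 4.02 and 9.15 CPM for Lbp, 35.1 and 56.3 CPM for Pcp4l1, 11.2 and 19.9 CPM for Clic6 and 11.4 and 17.6 CPM for Cd82. The ranking takes in both groups, so genes near Igfbp2 share its lower level in KO by construction. For Igf2, the member with the second largest spread over the libraries, the nearest were Ost4 (0.103), Nppc (0.139), Ripor2 (0.152), Plagl1 (0.154) and Zbed5 (0.159). None of these 5 passed in edgeR, with Plagl1, a zinc finger gene, at 25.0 CPM in KO and 23.6 CPM in WT. All genes share the same 6 libraries, with their depth and tissue content, and the likeness describes these libraries only.

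Around the family, the wider IGF pathway showed no call. Of 74 listed genes 64 could be tested, and 0 rose and 0 fell in edgeR, against 1.66% of all genes called in either direction. At an unadjusted p under 0.05 there were 0 higher and 9 lower (14.1%), against 8.57% of all genes higher and 8.99% lower, 17.6% in either direction. The median log2 fold change of the 64 was -0.04, and 17.2% of them had groups that did not overlap, against 23.7% of all genes. Genes called by edgeR without WT replicate 1 included Igfbp7 and Htra1, both lower, and Rps6kb2, which was higher. These 3 were named after their values were seen.

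By role, binding proteins outside the members gave Igfbp7, a vascular protein that binds IGFs weakly, at 38.06 ± 1.88 CPM in KO and 44.1 ± 5.28 CPM in WT (log2 fold change -0.21, SE 0.09, edgeR adjusted p = 0.244) and Igfbpl1 at 114.7 ± 2.99 and 126 ± 20.2 CPM (log2 fold change -0.14, SE 0.09). Igfbp1, a liver protein of the blood, had 1 to 17 counts and was not tested. Of the proteases that cut binding proteins and their inhibitors, Htra1 was at 124 ± 3.94 CPM in KO and 138 ± 11.4 CPM in WT (log2 fold change -0.16, SE 0.07) and Stc1, for stanniocalcin, which inhibits the protease PAPP-A, at 0.475 ± 0.0969 and 0.882 ± 0.420 CPM (log2 fold change -0.90, SE 0.40). Those 2 had the smallest p of 7 tested.

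Inside the cell, 38 of 39 listed signalling genes could be tested. Pik3cb, a catalytic subunit gene of PI3K, was at 23.1 ± 1.76 CPM in KO and 27.1 ± 0.717 CPM in WT (log2 fold change -0.23, SE 0.08, edgeR adjusted p = 0.165). The list's median log2 fold change was -0.03. In the growth hormone axis Stat5a and Stat5b, transcription factors downstream of the growth hormone receptor, had the smallest p of 5, with log2 fold changes of -0.21 (SE 0.17) and -0.07 (SE 0.06). The IGF2 mRNA binding protein genes Igf2bp2 and Igf2bp3 had log2 fold changes of -0.15 (SE 0.20) and 0.03 (SE 0.16). Among 7 neighbours of Igf2 and Igf2r, Mrpl23, a mitochondrial ribosomal protein gene, was at 22.9 ± 0.881 CPM in KO and 27.0 ± 0.965 CPM in WT (log2 fold change -0.24, SE 0.07, edgeR adjusted p = 0.129), and Th, the tyrosine hydroxylase gene, was at 4.36 ± 0.526 and 3.38 ± 1.25 CPM (log2 fold change 0.37, SE 0.25).

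**Figure D5:**
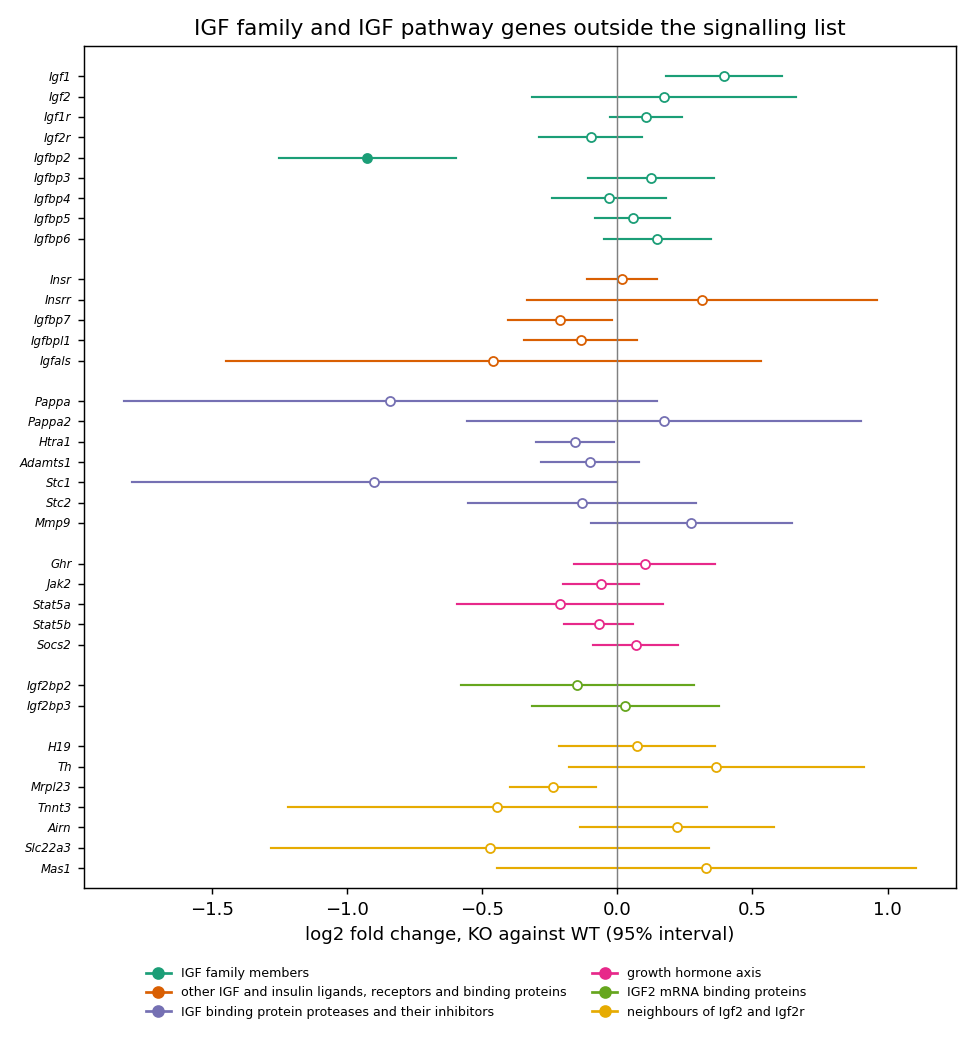
Log2 fold change, KO against WT, with its 95% interval (x axis) for the 9 family members and the other IGF pathway genes tested, without the list of signalling genes inside the cell (y axis), coloured by list. Filled points had an edgeR adjusted p below 0.05, which holds for Igfbp2 (-0.93) alone.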

How the data were processed

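Libraries were made from cerebellar RNA with TruSeq kits and sequenced as paired reads, per the labels' protocols. The authors deposited 1 table of raw gene counts for each library, with STAR 2.7.5a and the builds mm10 and GRCm38 named in the submitters' processing notes, as is edgeR 3.12. How reads were assigned to genes is not stated in the labels. The column counted without strand was used. In it, reads on bases where exons of more than 1 gene overlap are ambiguous and left out, also where the genes lie on opposite strands. Lines for unmapped (6.52% to 17.2%, higher in each KO library), multimapping, unassigned and ambiguous reads were left out of library sizes. No molecular identifiers are named.

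Symbols, lengths and positions came from GENCODE M21 (GRCm38), which matched 55227 of 55487 identifiers, and promoter sequences from RefSeq (GRCm38.p6). Groups came from the strain label. Replicates were numbered by accession, as names only, and each library came from 1 animal. Replicates of a group differed by more than sampling noise (chi-square per degree of freedom 2.56 to 17.1).

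Genes passing edgeR's filter (minimum count 10, minimum total 15) entered a quasi-likelihood fit with TMM scaling and a two-sided F test (edgeR 4.0.16, R 4.3.3). SEs and 95% intervals were derived from the F statistic. DESeq2 1.42.0, limma-voom (limma 3.58.1) with sample weights, other scaling, no filter, summed strand columns, 2 covariates and leaving out each library were alternatives. Of these steps only the edgeR fit was tested on simulated data, drawn with the dispersions of that same fit.

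The members, lists and tests were chosen with earlier results of these data known. Named were all members, Galnt17, Ttr, genes past the threshold or otherwise the 2 with the smallest p of each pathway list, up to 3 called genes of marker lists, and the 5 genes nearest to the 2 most variable members. Insr, H19, Airn, Ins1, Ins2, Igfbp1 and the cerebellar markers were added for their roles after values were seen. Enpp2 was added for its share of the choroid plexus sum, also after values were seen. One gene that this rule takes in is not reported here.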

Additional observations from a re-analysis of the deposited data

How the results depend on the processing

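Igfbp2 kept its direction in every alternative run and passed in DESeq2 (adjusted p = 2.29e-09), limma-voom (adjusted p = 0.000739), with DESeq2 size factors, with summed strand columns and without the filter. Igf1 also kept its direction and passed in limma-voom (adjusted p = 0.0398), without the filter (edgeR adjusted p = 0.0191) and without WT replicate 1. Its edgeR adjusted p reached 0.278 without KO replicate 1. Its log2 fold change was 0.21 with the choroid plexus covariate, which separates KO from WT. Without the filter the SE of Ttr was 0.078, against 0.95 with it, though Ttr ran from 4.26 to 431 CPM within KO. That fit took in too little of the spread between animals for such a gene. Its passes for Igfbp2 and Igf1 are therefore not read as support.

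Over all genes, DESeq2 called 275 higher and 291 lower, limma-voom 397 and 396, and edgeR without the filter 803 and 820, with the meningeal covariate 94 and 92, and with the choroid plexus covariate 2 and 10. With 1 library left out the counts were 28 to 959 higher and 53 to 962 lower. Members called higher numbered 1 in limma-voom and 1 without the filter, those called lower 0 with either covariate, and without 1 library 0 to 1 in each direction. Other pathway genes called lower numbered 1 in DESeq2, 1 in limma-voom and 1 without the filter (1 higher there), and without 1 library 0 to 1 were higher and 0 to 3 lower. The causes were not tested.

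Signs turned for values that did not pass in either fit. With the choroid plexus covariate the log2 fold change was -0.012 for Igf1r, 0.13 for Igf2r, 0.22 for Igfbp4 and 2.63 for Ttr, which is itself part of that covariate. With the meningeal covariate it was -0.012 for Igfbp3 and 0.0067 for Igfbp4. With each library left out in turn it ran from -0.070 (without WT replicate 1) to 0.40 for Igf2 and from -0.12 to 0.045 for Igfbp4, which was above 0 without KO replicate 1 (0.017) or WT replicate 3 (0.045). With the length of the longest transcript in place of merged exons, Igf1r (5.68 RPKM) came above Igf2r (5.49 RPKM), and the other 7 members kept their rank by the mean over 6 libraries, but Igfbp2 (32.6 to 40.6 RPKM) then lay above Igfbp5 (28.9 to 30.2 RPKM) in all 3 KO libraries. No paired analysis was possible because the labels give the groups no shared replicate numbers. Igf2, with 106 to 205 counts a library, had the widest interval of the members.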
